A study of Drosophila melanogaster with 12 samples.

Results

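The subject is the difference between E93 mutant and control salivary glands of Drosophila melanogaster at 14 h after pupariation. It was read from 6 libraries of total RNA, 3 of mutant glands and 3 of control glands, out of 12 in the series. The mutant glands came from animals with the allele pair E93Δ12/E93Δ13. The control glands came from animals labelled +/E93Δ1, so the controls carried a single copy of an E93 mutant allele. All animals were w1118 with fkh>GFP, a fluorescent reporter under the gland-active forkhead promoter, and +/+ at the other position the labels list, and they were fed cornmeal molasses without treatment. The other 6 libraries held the same genotypes at 12 h and serve below only to show where 14 h differed. Of 17807 genes in the deposited count table, 7584 passed a filter on low counts and make up the comparison. The question named by the submitters is how a null mutation of E93 alters ecdysone-regulated expression in late prepupal glands.

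Ecdysone is the steroid hormone that times insect metamorphosis. It binds the nuclear receptor pair EcR and Usp, which switch on a small set of early regulators, and these in turn set off waves of later genes. In the larval salivary gland an early pulse drives release of the glue proteins that fix the puparium, and a later prepupal pulse starts the destruction of the gland through caspases and autophagy. E93, written Eip93F in the table, encodes a helix-turn-helix transcription factor that belongs to this late prepupal response and is needed for the gland to be destroyed.

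Total counts ran from 7655109 to 9497317 in the mutant libraries and from 7757344 to 8168194 in the control libraries. Levels are given as counts per 1e+06 counts (CPM) on library sizes adjusted with TMM factors, a trimmed-mean scaling between libraries, in the order replicate 1, 2, 3. A count of 3, the most that a count of 0 allows, was 0.281 to 0.333 CPM, a limit that covers counting error only. Fold changes are log2 of mutant over control from edgeR's quasi-likelihood test. A gene is called at an adjusted p under 0.05. The labels do not say whether replicates came from separate animals, so the p-values measure the spread between these libraries. Across genes, log2 CPM correlated at 0.974 to 0.977 among mutant libraries and 0.984 to 0.988 among control libraries. The first principal component of the 6 libraries held 69.7% of their variance, with mutants at 33.3 to 42.3 and controls at -37.3 to -40.9.

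The targeted gene itself was counted at a higher level in the libraries labelled mutant. Eip93F (FBgn0264490, 3R, 21949114 to 22014539 on BDGP6) stood at 1960, 1980 and 2020 CPM in the mutants, against 776, 865 and 894 CPM in the controls (log2 fold change 1.23, SE 0.2, edgeR adjusted p = 0.00133). Counts over the whole gene do not show which exons were read or whether protein was made, and the labels do not place the deletions. They therefore do not check the genotype.

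Among 14 listed genes of salivary gland identity 12 passed the filter. Of these eyg and toe rose (16.7%), against 8.29% of all genes tested, and none fell, against 6.91%. Without the control replicate 3 this list held 1 rise. The factor genes sage and CrebA averaged 65.6 and 62.1 CPM in mutants, against 105 and 67.9 CPM in controls, and rib was at 0 in all libraries at 14 h. Markers of other tissues moved unevenly. The mutant replicate 2 stood apart in genes of smooth septate junctions, which seal gut epithelia: mesh was at 1.94, 56.7 and 2.81 CPM in the mutants, against 1.59, 0.523 and 0.888 CPM in the controls, and Ssk was at 0, 31.5 and 3.09 CPM in the mutants, against 0.198, 0.418 and 0.222 CPM in the controls. Neither was called at 14 h (edgeR adjusted p = 0.0963 and 0.0836). Both were called without the 12 h mutant replicate 1 (0.0428 and 0.0475) or with the filter dropped (0.0314 and 0.0248), and Ssk without the 14 h mutant replicate 1 (0.0417). The gene mesh was also called with DESeq2 (DESeq2 adjusted p = 0.025). It was called in edgeR fits of the 14 h libraries alone, without and with a replicate block (edgeR adjusted p = 0.0368 and 0.0388). The summed level of 12 midgut markers ran from 2.96 to 102 CPM in mutants and from 2.41 to 3.47 CPM in controls, with 3 above the filter and the digestive enzyme genes betaTry, lambdaTry and Jon99Cii at 0 in all 6 libraries. None of the 3 hemocyte, 8 muscle and 1 Malpighian tubule markers that passed the filter was called, while 2 muscle markers rose without the 12 h control replicate 1. Among other tissue markers 1 of 7 for fat body, Fbp1, 1 of 4 for neurons, Syt1, and 1 of 3 for imaginal rings and discs, ptc, rose. These were 14.3%, 25% and 33.3% of their lists. Of 7 epidermis and trachea markers Cpr49Ac and serp rose (28.6%) and knk fell (14.3%). In each of these short lists a single call exceeds the 8.29% of rises or 6.91% of falls among all genes tested, so the shares are coarse. No fat body marker was called without any 1 of the 14 h libraries except the mutant replicate 1, or without the 12 h control replicates 2 or 3 or the 12 h mutant replicate 3. No neuron marker was called without the control replicate 1 or 2 or the mutant replicate 2, and 2 were without the 12 h control replicate 1. The epidermis rises numbered 1 without any 1 of the 14 h libraries except the mutant replicate 2, or without the 12 h control replicate 2 or the 12 h mutant replicates 2 or 3. The summed range was 416 to 678 CPM in mutants and 500 to 547 CPM in controls for fat body, 15.7 to 20.4 and 15.5 to 18.1 CPM for hemocyte, 20.6 to 38.5 and 18.5 to 28.5 CPM for muscle, and 2.31 to 3.65 and 5.44 to 6.9 CPM for Malpighian tubule markers, with mutants before controls in each pair. Imaginal ring and disc markers summed to 23.6 to 36.8 CPM in mutants and 6.44 to 9.51 CPM in controls, and neuron markers to 24.9 to 30.2 and 11.5 to 16.3 CPM. Epidermis and trachea markers summed to 455 to 564 CPM in mutants and 1070 to 1140 CPM in controls, of which the chitin organisation gene knk made up a mean of 231 CPM in mutants and 937 CPM in controls. Their part in the results was not tested, and in whole glands fewer cells of a type and less RNA per cell cannot be told apart.

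Of the 7584 genes, 629 were higher in mutants, which is 8.29%, and 524 were lower, which is 6.91%. Together 1153 were called, or 15.2%. The shares of 8.29% and 6.91% are the background for the counts of called members in each gene list above and below. Of the rises 515 were at least 2-fold, 233 at least 4-fold and 54 at least 16-fold, with a median log2 size of 1.64. Falls were smaller: 324 were at least 2-fold, 98 at least 4-fold and 18 at least 16-fold, with a median size of 1.18. The 3 mutant libraries lay wholly above the 3 controls for 22.2% of all genes tested and wholly below for 20.3%. Among called genes the libraries did not overlap for 625 of the 629 rises and all 524 falls. The median over all genes tested was 0.05, with quartiles at -0.29 and 0.45. Without the 14 h control replicates 1, 2 and 3 in turn the total was 745, 701 and 767. The rises numbered 409 and 383 without the control replicates 1 and 2. The falls numbered 336, 318 and 327 without the control replicates 1, 2 and 3, 335 and 329 without the mutant replicates 2 and 3, and 808 without the 12 h control replicate 1. A fit without the mutant libraries that held gut-type RNAs, replicate 2 at 14 h and replicate 1 at 12 h, was chosen after seeing the data and gave 784 calls, 759 of them among the 1153, and 321 falls.

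**Figure D1:**
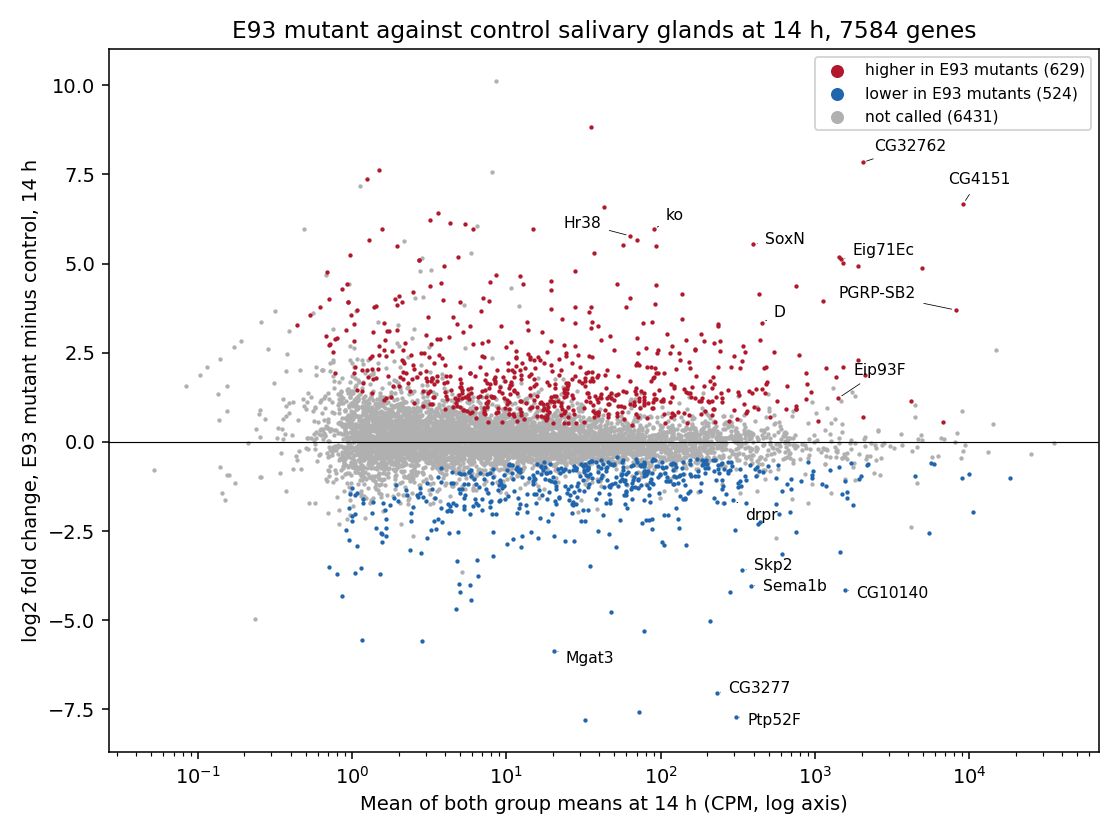
Log2 fold change of E93 mutant over control glands at 14 h (vertical) against the mean of both group means in CPM (horizontal, log axis) for 7584 genes, with 629 called higher in red, 524 called lower in blue and the rest grey. The rises spread further from 0 than the falls, and CG32762, CG4151 and PGRP-SB2 combine a large rise with a high level.

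The called genes made up a large part of the RNA. Genes called higher took 16.6, 20.1 and 20.2% of all counts in the mutants, against 4.65, 4.51 and 4.7% in the controls. Genes called lower took 11.1, 10.2 and 9.54% in the mutants, against 24, 24 and 22.5% in the controls. Since the genes were chosen by these libraries, the shares describe the change and do not test it. By chromosome arm, 11.2% of 1522 genes on 3L were called higher, 5.79% of 1260 on X and 1.32% of 76 on the fourth chromosome. Falls were more even over the large arms, from 6.09% on 2R to 7.46% on 3R. Of 222 non-coding RNA genes 15.8% were higher and 10.4% lower.

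The largest falls included genes of membrane proteins. Ptp52F (FBgn0034085, on 2R from 16171112 to 16178307) encodes a phosphatase of the receptor tyrosine type and was at 1.43, 5.06 and 2.25 CPM in the mutants, against 650, 591 and 582 CPM in the controls. All mutant libraries were far below all controls, and the fall was -7.71 on the log2 scale (SE 0.6, edgeR adjusted p = 3.38e-06). It was -8.35 without the mutant replicate 2. Sema1b, a transmembrane semaphorin, stood at 56.8, 38.8 and 37.3 CPM in the mutants, against 709, 776 and 684 CPM in the controls (log2 fold change -4.03, SE 0.44, edgeR adjusted p = 6.34e-05). In the list of axon guidance genes and receptor tyrosine phosphatases 3 of 21 members fell and 1 rose, with a median of 0.08. The third fall was Ptp99A, at 58.2, 42.9 and 31.1 CPM in the mutants, against 115, 134 and 126 CPM in the controls. Ptp4E, another receptor phosphatase, rose, with 339, 345 and 274 CPM in the mutants and 105, 110 and 118 CPM in the controls (log2 fold change 1.52, SE 0.2, edgeR adjusted p = 0.000205).

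Genes of several enzymes fell. Mgat3, a glycosyltransferase of N-glycan branching, was at 0.816, 0.659 and 0.562 CPM in the mutants, against 39.1, 37.6 and 43.5 CPM in the controls (log2 fold change -5.86, SE 0.42, edgeR adjusted p = 2.18e-06). Dgk, a diacylglycerol kinase, was at 3.16, 5.5 and 3 CPM in the mutants, against 137, 174 and 149 CPM in the controls (log2 fold change -5.3, SE 0.43, edgeR adjusted p = 4.55e-06). Both groups were tight, and the lowest control exceeded the highest mutant many times over in both genes. Ppat-Dpck, an enzyme of coenzyme A synthesis, fell by 4.2 on the log2 scale (SE 0.3, edgeR adjusted p = 2e-06), but 80.9% of its exon length overlaps a gene on the other strand, so its counts may include that gene. Gs2, a glutamine synthetase, was at 12.4, 14.2 and 8.43 CPM in the mutants, against 110, 74 and 86.5 CPM in the controls (log2 fold change -2.95, SE 0.32, edgeR adjusted p = 5.4e-05). Prx4, a peroxiredoxin, fell by 2.41 (SE 0.51, edgeR adjusted p = 0.00639).

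Regulators were also among the falls. Skp2 (FBgn0037236, 3R, 4334879 to 4337674), the substrate-binding F-box subunit of an SCF ubiquitin ligase, was at 52.5, 47 and 54.6 CPM in the mutants, against 620, 609 and 641 CPM in the controls. The groups were far apart, and the fall was -3.6 on the log2 scale (SE 0.22, edgeR adjusted p = 5.45e-07). Pdcd4, whose mammalian counterpart restrains translation initiation, fell by 2.88 (SE 0.17) and Evi5, which carries a Rab GTPase-activating domain, by 2.89 (SE 0.21), both with an edgeR adjusted p of 2.57e-06 or less. The microRNA-processing gene pasha fell by 3.47 (SE 0.44), the peptide hormone receptor gene Dh31-R by 4 (SE 0.41) and wake, an ankyrin-repeat gene known from the timing of sleep, by 2.8 (SE 0.21), with edgeR adjusted p of 0.000188 or less. MED16, a Mediator subunit, was at 10.8, 12.6 and 12 CPM in the mutants, against 66.1, 70 and 63.7 CPM in the controls, and was the 1 member of 28 Mediator genes called lower. In that list 1 other gene was called higher, a count that was 0 in some fits with 1 library left out.

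**Figure D2:**
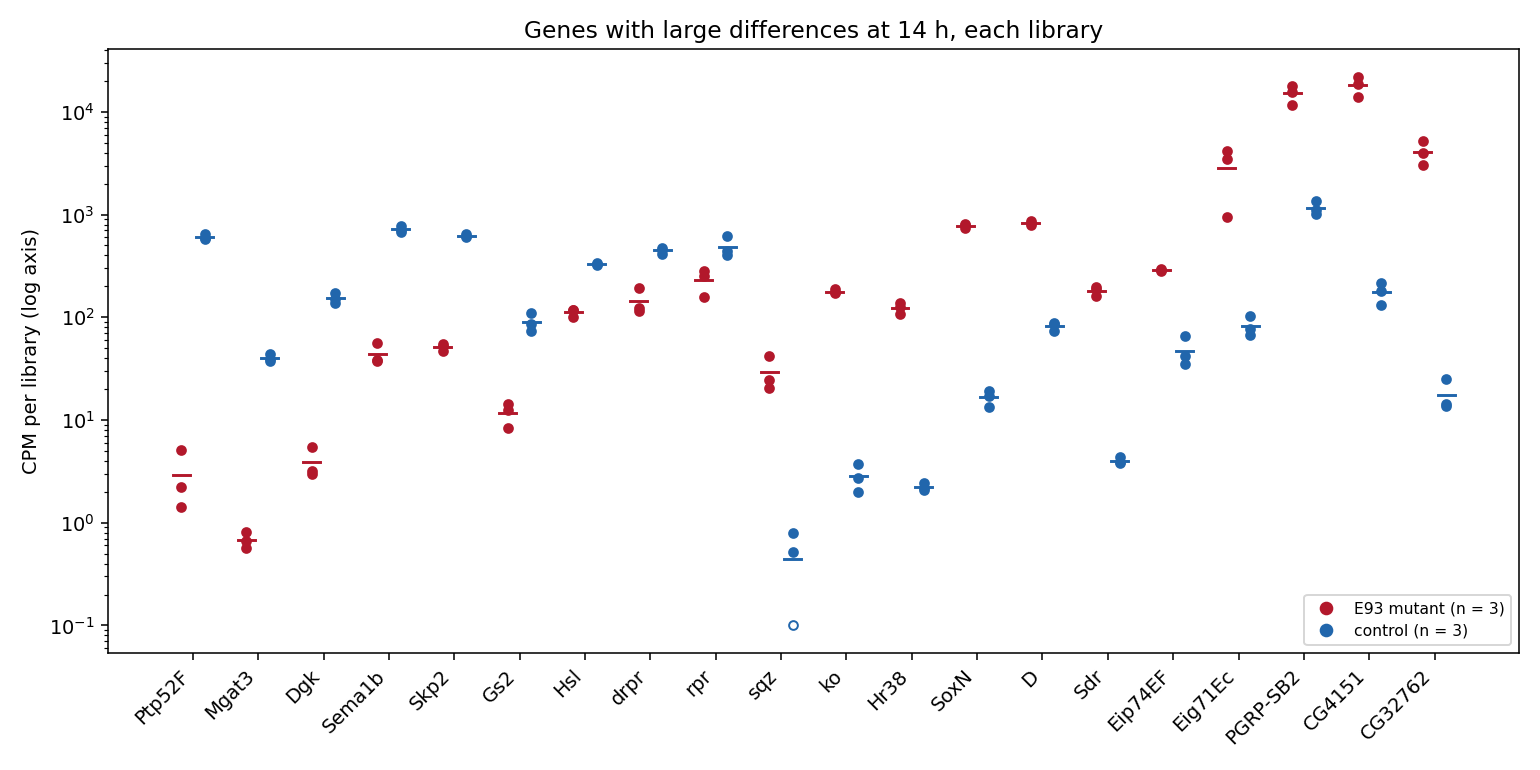
CPM in each library at 14 h (points, log axis; open point, 0 counts drawn at the axis floor) for 20 genes, E93 mutants in red at the left and controls in blue at the right of each pair, with bars at the means of 3 libraries. Ptp52F at 1.43 to 5.06 CPM in mutants against 582 to 650 CPM in controls, and CG4151 at 13900 to 21900 CPM in mutants against 132 to 215 CPM in controls, lie far apart.

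Genes of transcription factors were among the largest rises. The zinc-finger gene sqz was at 42.4, 24.6 and 20.4 CPM in the mutants, against 0.793, 0.523 and 0 CPM in the controls (log2 fold change 5.97, SE 0.56, edgeR adjusted p = 1.78e-05), and was 6.68 without the control replicate 1. Hr38, a nuclear receptor of the NR4A type, was at 139, 126 and 107 CPM in the mutants, against 2.08, 2.2 and 2.44 CPM in the controls (log2 fold change 5.78, SE 0.35, edgeR adjusted p = 5.45e-07). The gene ko was at 174, 187 and 175 CPM in the mutants, against 3.77, 2.72 and 2 CPM in the controls (log2 fold change 5.96, SE 0.27, edgeR adjusted p = 6.75e-08). In these 3 genes no control exceeded 3.77 CPM and no mutant was below 20.4 CPM.

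The Sox genes, which encode HMG-box transcription factors known from the nervous system and early embryo, held 3 rises among 6 members and no fall, with a median of 1.34. SoxN (FBgn0029123, 2L, 8825645 to 8829670) was at 799, 808 and 733 CPM in the mutants, against 19.3, 17.2 and 13.5 CPM in the controls (log2 fold change 5.55, SE 0.21, edgeR adjusted p = 1.53e-08). Dichaete, written D, was at 821, 793 and 870 CPM in the mutants, against 73.4, 85.2 and 87.4 CPM in the controls (log2 fold change 3.34, SE 0.34, edgeR adjusted p = 3.24e-05). Sox21b, a neighbour of D in the same Sox group, was at 16.9, 17.8 and 17.3 CPM in the mutants, against 3.96, 4.5 and 4.33 CPM in the controls (log2 fold change 2.02, SE 0.24, edgeR adjusted p = 0.000109). The spread within each group was small beside the gap for all 3. The non-coding gene lncRNA:CR44414, 38204 bases from SoxN on the same strand and chosen after its values were seen, was at 57.7, 74.6 and 78 CPM in the mutants, against 0.0991, 0.105 and 0.222 CPM in the controls (log2 fold change 8.82, SE 0.45, edgeR adjusted p = 1.64e-07).

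The other named rises had varied roles. Sdr, a secreted protein that binds insulin-like peptides, was at 161, 198 and 189 CPM in the mutants, against 4.36, 3.87 and 3.78 CPM in the controls (log2 fold change 5.5, SE 0.37, edgeR adjusted p = 1.38e-06). Eh, the eclosion hormone of the ecdysis programme, was at 24, 40 and 47.4 CPM in the mutants, against 2.38, 1.05 and 1.44 CPM in the controls (log2 fold change 4.5, SE 0.46, edgeR adjusted p = 3.24e-05). RluA-1, a pseudouridine synthase-type gene, rose by 5.51 (SE 0.2), the gap junction innexin gene ogre by 4.03 (SE 0.23) and blot, a gene of the SLC6 transporter family, by 3.88 (SE 0.29), with edgeR adjusted p of 2.96e-06 or less. Sobp rose by 5.3 (SE 0.5), rgr by 4.41 (SE 0.4) and veil by 4.44 (SE 0.34), the last with exons that lie wholly opposite another gene. Pgant8, a transferase that starts O-linked sugar chains, was at 15.6, 112 and 69.3 CPM in the mutants, against 4.36, 4.39 and 5.44 CPM in the controls (log2 fold change 3.79, SE 0.61, edgeR adjusted p = 0.00114). Its highest value lay in the library with gut-type genes, and without that mutant replicate 2 the fold change was 3.17 (edgeR adjusted p = 0.00499).

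Provisional genes, chosen after their values were seen, gave some of the widest differences. CG4151 (FBgn0029770, X, 5501476 to 5502782) was at 13900, 21900 and 18500 CPM in the mutants, against 181, 132 and 215 CPM in the controls (log2 fold change 6.68, SE 0.58, edgeR adjusted p = 9.67e-06). CG32762 (FBgn0052762), 246 bases away on the opposite strand, was at 3040, 5170 and 3960 CPM in the mutants, against 13.8, 14.2 and 25.2 CPM in the controls (log2 fold change 7.84, SE 0.48, edgeR adjusted p = 5.45e-07). The non-coding gene lncRNA:CR45519, 5279 bases from CG32762, was at 10.5, 12.1 and 13 CPM in the mutants, against 0.297, 0.209 and 0 CPM in the controls (log2 fold change 5.98, SE 0.68, edgeR adjusted p = 8.63e-05), and 6.59 without the control replicate 1. All 3 neighbours were higher in every mutant library than in every control library.

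Neighbours also fell together. On 2L, CG15406 lies inside CG3277. CG3277 was at 3.47, 2.86 and 4.12 CPM in the mutants, against 469, 473 and 429 CPM in the controls (log2 fold change -7.03, SE 0.36, edgeR adjusted p = 1.64e-07), and CG15406 was at 0.204, 0.55 and 0.0936 CPM in the mutants, against 67.8, 64.6 and 60.1 CPM in the controls (log2 fold change -7.8, SE 0.49, edgeR adjusted p = 6.66e-07). Without the mutant replicate 2 the CG15406 value was -8.63. On 2R, CG30377, 4042 bases from Dgk on the other strand, was at 1.02, 0.44 and 0.749 CPM in the mutants, against 143, 147 and 143 CPM in the controls (log2 fold change -7.57, SE 0.59, edgeR adjusted p = 3.38e-06). The Dgk fall given above was therefore matched by its neighbour in every library. On X, Gs2 ends at 11430197 and the span of Evi5, on the other strand, starts at 11430523, and both fell.

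Among genes tested, 5 runs of at least 5 adjacent genes were called in 1 direction. On 3L, 13428839 to 13449245, CG10713, CG10154, CG10725, CG10140, CG14109 and cmb fell, with a median of -3.19. CG10140 was at 156, 163 and 175 CPM in the mutants, against 2760, 2420 and 3660 CPM in the controls (log2 fold change -4.16, SE 0.2, edgeR adjusted p = 1.28e-07). CG10725 fell by 4.42 (SE 0.52, edgeR adjusted p = 0.000107) and CG10713 by 2.71 (SE 0.52, edgeR adjusted p = 0.00341). CG14109 was at 444, 457 and 481 CPM in the mutants, against 887, 771 and 1170 CPM in the controls, and its call was lost without the control replicate 3 (edgeR adjusted p = 0.0502). On 3L, 16712126 to 16730818, Dab, CG13026, CG13031, PGRP-SB2, PGRP-SB1 and Dbp73D rose, with a median of 2.96, and PGRP-SB2 was the abundant member. Another run of rises lay on 3L from 10693184 to 10876496, with a median of 2.16. The remaining runs of rises, the 71E genes and the Bomanin genes, are described with their families. These runs were picked from the same calls and are a description.

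The late 71E genes are a cluster of small, mostly secreted-protein genes that ecdysone induces in the prepupal gland. They formed the longest run, Eig71Ea to Eig71Ei on 3L (15649126 to 15660351), in which all 9 genes rose, and 9 of the 11 listed members were called, with a list median of 2.52. Eig71Ec was at 955, 3500 and 4130 CPM in the mutants, against 76.7, 67.5 and 103 CPM in the controls (log2 fold change 5.12, SE 0.57, edgeR adjusted p = 6.92e-05). Eig71Ed was at 940, 3310 and 4580 CPM in the mutants, against 86.7, 70 and 116 CPM in the controls. Eig71Eg was at 1270, 3980 and 5740 CPM in the mutants, against 113, 93.4 and 158 CPM in the controls. In all 3 genes the mutant replicate 1 was the lowest mutant library and still above every control. Summed over the list, the level was 8710 to 36300 CPM in mutants and 2450 to 4970 CPM in controls. The rises of Eig71Ea, Eig71Eb and Eig71Ei were less firm, and 6 members were called without the 14 h control replicate 1 or 2 or the mutant replicate 3. The Eig71Ea call was lost when the 14 h control replicate 1 or 2 or the mutant replicate 3 was left out (edgeR adjusted p = 0.0844, 0.0871 and 0.0783), and the log2 fold change was 2.29 with all libraries and 2.91 without the control replicate 3. Eig71Eb, at 1.82 (edgeR adjusted p = 0.0489), lost its call without any of the 14 h libraries except the control replicate 3 and the mutant replicate 1, and without any 12 h library except the 12 h control replicate 1, and was 2.62 without the control replicate 3. Eig71Ei, at 2.52 (edgeR adjusted p = 0.0122), lost its call without the control replicates 1 or 2 or the mutant replicate 3 (edgeR adjusted p = 0.0642, 0.0684 and 0.0534).

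Other genes of the ecdysone response split. Of 23 regulators and response genes 5 rose and 1 fell, with a median of 0.22. The rises were Eip74EF, MsrA, Oatp74D, br and gce. The early ETS-factor gene Eip74EF was at 286, 281 and 298 CPM in the mutants, against 65.3, 41.7 and 35.2 CPM in the controls (log2 fold change 2.6, SE 0.42, edgeR adjusted p = 0.00105). MsrA, a methionine sulfoxide reductase known as an ecdysone-induced gene, was at 50.6, 53.1 and 63.3 CPM in the mutants, against 18.1, 16.6 and 16.1 CPM in the controls (log2 fold change 1.71, SE 0.22, edgeR adjusted p = 0.00021). Oatp74D, the importer that carries ecdysone into cells, was at 71.2, 74.4 and 60.9 CPM in the mutants, against 29.4, 26.6 and 24.4 CPM in the controls (log2 fold change 1.36, SE 0.21, edgeR adjusted p = 0.000933). None of these overlapped between the groups. The nuclear receptor gene Eip78C fell, with 61.2, 49.1 and 48 CPM in the mutants and 96.1, 97.8 and 117 CPM in the controls (log2 fold change -0.97, SE 0.17, edgeR adjusted p = 0.00159). EcR was at 156, 183 and 148 CPM in the mutants and 185, 211 and 175 CPM in the controls and was not called (log2 fold change -0.23, SE 0.26, edgeR adjusted p = 0.641). The broad-complex gene br, at 458, 445 and 465 CPM in the mutants and 205, 182 and 164 CPM in the controls, had 1.31 (SE 0.35, edgeR adjusted p = 0.0252), but the call was lost without any 1 of the 6 libraries at 14 h (edgeR adjusted p = 0.0632 to 0.104) or without the 12 h mutant replicate 2 (0.0501). The list held 3 rises without any 1 of these libraries.

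Of 12 nuclear receptor genes that passed the filter, Hr38 rose and Eip78C fell, and 2 rose without the 12 h control replicate 1. The glue genes, which encode the secreted adhesive, held 3 rises among 9 members and no fall, with a median of 1.19. Sgs5bis was at 583, 679 and 1200 CPM in the mutants, against 51.6, 27.6 and 57.8 CPM in the controls (log2 fold change 4.16, SE 0.65, edgeR adjusted p = 0.000913). It was the 1 glue gene called when the control replicate 1 or 2 or the mutant replicate 3 was left out. Sgs5 was at 41.7, 48.7 and 54.2 CPM in the mutants, against 6.54, 6.8 and 8.99 CPM in the controls (log2 fold change 2.69, edgeR adjusted p = 0.0283), and its call was lost without any 1 of the 14 h libraries (edgeR adjusted p = 0.0552 to 0.112). The gland regulator eyg, a Pax-type factor, rose by 1.3 (SE 0.25, edgeR adjusted p = 0.00392).

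A part of the genes of dead-cell clearance fell in mutants. Of 12 engulfment genes 4 fell and none rose, against 6.91% falls among all genes tested, with a median of -0.27, and 2 fell without the mutant replicate 2. The engulfment receptor gene drpr (FBgn0027594) was at 115, 194 and 122 CPM in the mutants, against 471, 454 and 417 CPM in the controls (log2 fold change -1.64, SE 0.27, edgeR adjusted p = 0.00136). NimC4, another receptor for apoptotic cells, was at 11.5, 14.2 and 14.6 CPM in the mutants, against 41.2, 38.8 and 34.4 CPM in the controls (log2 fold change -1.5, SE 0.26, edgeR adjusted p = 0.00157). Neither overlapped between groups, and both calls held without each library in turn. The calls for Rac2 (-0.82, edgeR adjusted p = 0.0127) and mbc (-0.79, edgeR adjusted p = 0.0178), parts of the cytoskeletal arm of engulfment, were lost without the mutant replicate 2 (edgeR adjusted p = 0.068 and 0.076). Rac2 was also lost without the control replicate 3 (0.0533), and mbc without the control replicates 1 or 2 or the mutant replicate 3 (0.0524, 0.0788 and 0.0791).

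Among 15 genes of cell death control, which include IAP antagonists, IAPs, Bcl-2 family genes and caspases, 1 rose and 1 fell around a median of 0.08. Buffy, a Bcl-2 family gene, was at 174, 150 and 151 CPM in the mutants, against 65, 67 and 86.4 CPM in the controls (log2 fold change 1.12, SE 0.23, edgeR adjusted p = 0.00476). The IAP antagonist gene rpr was at 253, 157 and 284 CPM in the mutants, against 405, 445 and 615 CPM in the controls (log2 fold change -1.08, SE 0.28, edgeR adjusted p = 0.0213). Its call was lost without the control replicate 2 or 3 or the mutant replicate 1 or 2 (edgeR adjusted p = 0.051, 0.1, 0.0531 and 0.0943). Without the 12 h control replicate 1, 4 members of the list fell. For autophagy 2 of 27 members rose and none fell, with a median of -0.01. These were Atg18a at 0.57 (SE 0.16, edgeR adjusted p = 0.0337) and ref(2)P at 0.75 (SE 0.22, edgeR adjusted p = 0.0373), and neither was called without any 1 of the 14 h libraries. Without the 12 h control replicate 2 neither was called, and without any other 1 of the 12 h libraries except the control replicate 1 only ref(2)P was.

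Single lysosomal and proton pump genes rose within lists whose medians were 0.09 and 0.29. LManII, a lysosomal alpha-mannosidase, was at 84.7, 89.9 and 83.2 CPM in the mutants, against 13.9, 14 and 14.9 CPM in the controls (log2 fold change 2.59, SE 0.21, edgeR adjusted p = 4.65e-06). It was 1 of 3 rises among 23 lysosome genes, and the 1 that remained without any 1 of the 14 h libraries, the 12 h control replicates 2 or 3 or the 12 h mutant replicates 2 or 3. The 3 rises were 13% of that list, against 8.29% of all genes tested. Vha100-2, a membrane subunit of the vacuolar proton pump, was at 246, 234 and 189 CPM in the mutants, against 39.9, 41.4 and 38.3 CPM in the controls (log2 fold change 2.48, SE 0.24, edgeR adjusted p = 2.15e-05). The groups did not overlap for either gene. On 2L, LManII ends at 10462472 and the span of RluA-1, on the other strand, starts at 10463340, and both rose. The 16 proton pump genes tested held 2 rises, Vha100-2 and Vha68-2, and 1 fall, VhaAC39-1. Without the 12 h control replicate 1 they held 4 rises and 2 falls. The rises numbered 1 without the 14 h control replicates 1, 2 or 3, the mutant replicates 1 or 2 or the 12 h control replicate 2. No fall was called without the control replicate 1 or 3 or the mutant replicate 1 or 3, and 2 were without the 12 h control replicate 2 or 3.

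**Figure D3:**
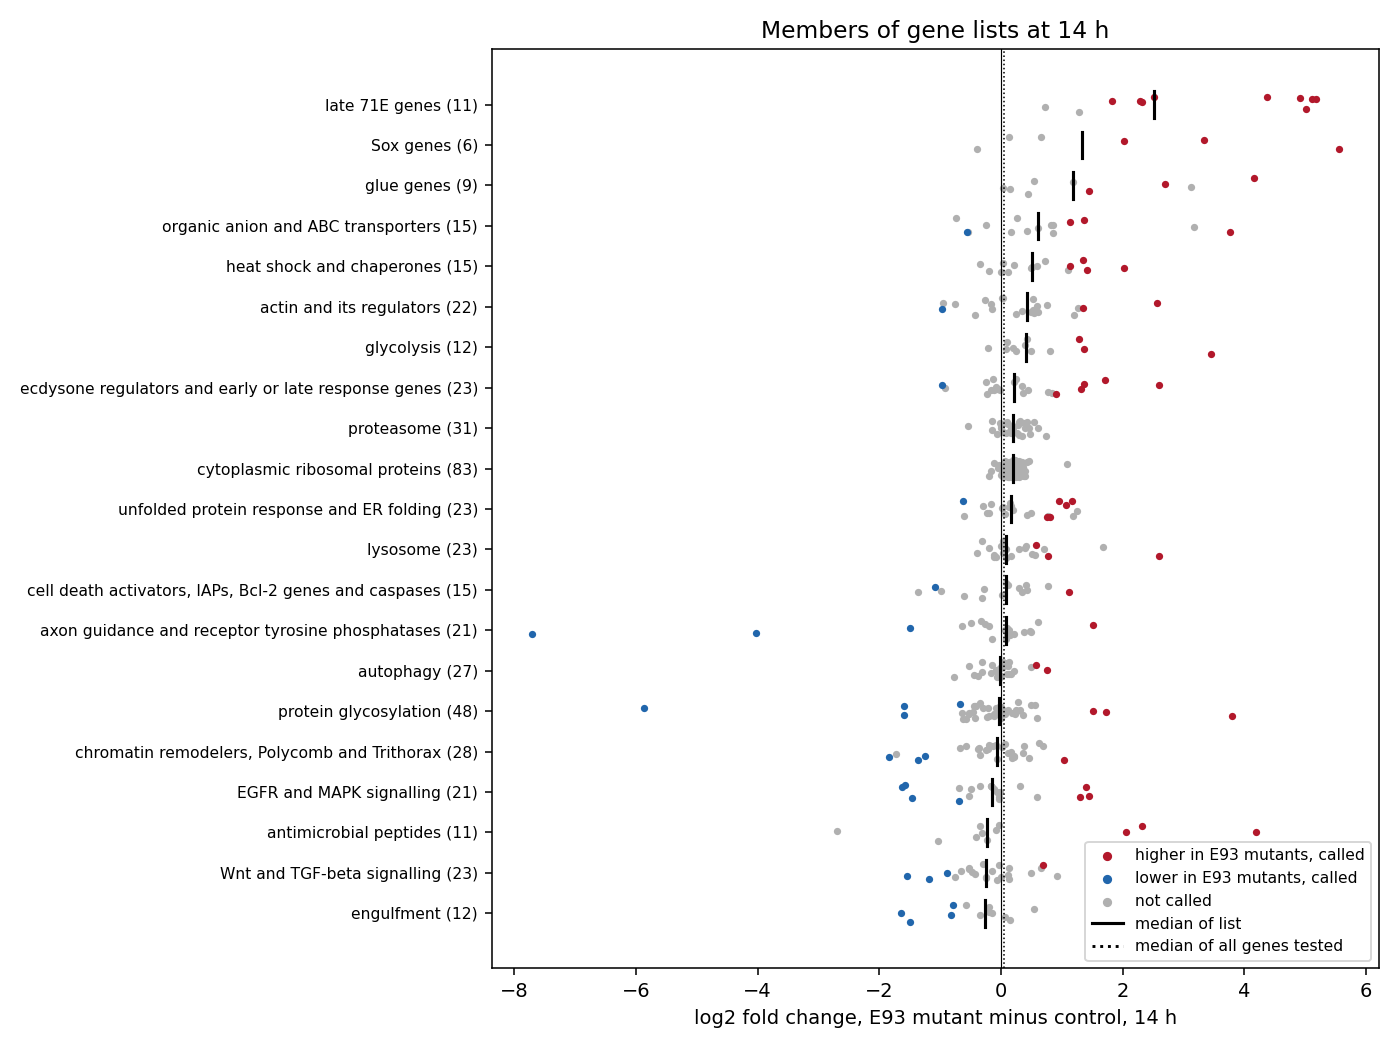
Log2 fold change at 14 h (horizontal) of each tested member (points, jittered vertically) of 21 gene lists, with members tested in brackets, called rises in red, called falls in blue and others in grey. A thick bar marks each list's median and the dotted line the median of all genes tested, 0.05. The late 71E genes, Sox genes and glue genes had medians of 2.52, 1.34 and 1.19, and the other 18 lists had medians between -0.27 and 0.61.

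Across the 54 pathway lists, 47 had a median within 0.5 of 0, 27 held called members in both directions and 3 held no call, those of ribosomal proteins, the proteasome and proteoglycan synthesis. Cytoplasmic ribosomal proteins had 0 of 83 members called, with a median of 0.19 and 77 members above 0. In the proteasome list 0 of 31 were called, with a median of 0.19. Leaving out the 12 h mutant replicate 3 gave 1 call among ribosomal proteins, and leaving out the 12 h control replicate 1 or the 14 h mutant replicate 1 gave 1 rise among proteasome genes. Without the 12 h control replicate 1 there was also 1 fall in the proteasome list and 1 in the proteoglycan list.

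In metabolism, glycolysis held 3 rises among 12 members, Hex-A, Ald1 and Ldh, and no fall, with a median of 0.41. Hex-A, a hexokinase, was at 45.4, 46.2 and 34.1 CPM in the mutants, against 4.86, 3.14 and 3.44 CPM in the controls (log2 fold change 3.45, SE 0.36, edgeR adjusted p = 3.69e-05). Ald1, an aldolase, rose by 1.37 (SE 0.18, edgeR adjusted p = 0.000225), and ras, the IMP dehydrogenase of guanine nucleotide synthesis, by 1.21 (SE 0.2, edgeR adjusted p = 0.00117). COX7C, a small subunit of cytochrome c oxidase, was at 101, 154 and 144 CPM in the mutants, against 28, 29.2 and 36.2 CPM in the controls (log2 fold change 2.1, SE 0.21, edgeR adjusted p = 3.1e-05), while ScsbetaG, of the citric acid cycle, fell by 1.04 (SE 0.18, edgeR adjusted p = 0.0017). COX7C was 1 of 2 rises among 63 oxidative phosphorylation genes, with no fall and a median of 0.22. The rises were 3.17% of that list, against 8.29% of all genes tested. ScsbetaG was the 1 call among 17 citric acid cycle genes. That was 5.88% of the list, against 6.91% of falls among all genes tested. Genes of a pair of lipid enzymes fell. Hsl, a lipase of stored fat, was at 101, 118 and 118 CPM in the mutants, against 325, 333 and 339 CPM in the controls (log2 fold change -1.57, SE 0.15, edgeR adjusted p = 2.33e-05), and Lpin, a phosphatidate phosphatase, was at 380, 422 and 401 CPM in the mutants, against 961, 987 and 794 CPM in the controls (log2 fold change -1.19, SE 0.24, edgeR adjusted p = 0.00476). Among 18 lipid genes these were the 2 falls, and SCAP was the 1 rise. Without the 12 h control replicate 1 the list held 4 falls and 3 rises, and without the 14 h control replicate 1 it held no rise.

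Sugar-chain and chitin genes moved in both directions. Among 48 protein glycosylation genes Pgant8, GlcAT-P and Pgant4 rose and Mgat3, GlcAT-S, Alg7 and Pgant9 fell, 3 against 4, with a median of -0.04. These were 6.25% and 8.33% of the list, near the 8.29% of rises and 6.91% of falls among all genes tested. Beside Mgat3 and Pgant8, GlcAT-P rose by 1.72 (SE 0.2, edgeR adjusted p = 0.000104) and the related glucuronyltransferase gene GlcAT-S fell by 1.59 (SE 0.27, edgeR adjusted p = 0.00169). Alg7, which starts the lipid-linked N-glycan precursor, was at 3.16, 3.3 and 3.84 CPM in the mutants, against 9.02, 8.37 and 13.9 CPM in the controls (log2 fold change -1.59, SE 0.25, edgeR adjusted p = 0.000933). Mgat3 lies inside the span of Alg7 on the other strand, without shared exon length, so these falls come from a single locus. The enzyme that makes UDP-N-acetylglucosamine, mmy, was at 1420, 1350 and 1220 CPM in the mutants, against 255, 235 and 241 CPM in the controls (log2 fold change 2.45, SE 0.18, edgeR adjusted p = 2.5e-06). Cpr49Ac, a cuticle protein gene, rose by 1.92 (SE 0.39, edgeR adjusted p = 0.00476). For knk, at 194, 263 and 236 CPM in the mutants and 930, 900 and 982 CPM in the controls, the fold change was -2.02 (SE 0.52, edgeR adjusted p = 0.0186), its call was lost without any 1 of the 14 h libraries (edgeR adjusted p = 0.0512 to 0.0782), and 64% of its exon length lies opposite another gene.

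Signalling genes changed singly. In the EGFR and MAPK list 3 of 21 rose, aop, edl and drk, and 4 fell, vn, sty, Dsor1 and csw. These were 14.3% and 19% of the list, against 8.29% and 6.91% of all genes tested. The ligand gene vn was at 11.4, 10.8 and 10.7 CPM in the mutants, against 32.4, 34.2 and 31.9 CPM in the controls (log2 fold change -1.58, SE 0.2, edgeR adjusted p = 0.000172). The ETS repressor gene aop was at 262, 198 and 172 CPM in the mutants, against 76, 91.4 and 71.7 CPM in the controls (log2 fold change 1.4, SE 0.28, edgeR adjusted p = 0.00438), and edl, whose product binds and inhibits ETS factors, rose by 1.3 (SE 0.2, edgeR adjusted p = 0.000764). The falls numbered 2 without the control replicate 1 or 2 or any 1 of the mutant replicates. The Wnt receptor gene fz fell by 1.55 (SE 0.22, edgeR adjusted p = 0.000422), the activin receptor gene babo by 0.89 (SE 0.15, edgeR adjusted p = 0.00181), and neur, a ubiquitin ligase of Notch signalling, by 1.91 (SE 0.36, edgeR adjusted p = 0.00283), although 38.8% of neur exon length lies opposite another gene. In the Hippo pathway ex rose by 1.54 (SE 0.24, edgeR adjusted p = 0.00084) and Rassf fell by 1.18 (SE 0.15, edgeR adjusted p = 0.000157). The Wnt and TGF-beta list held 1 rise and 3 falls among 23 genes (4.35% and 13%). Notch signalling held no rise and 1 fall among 16 (6.25%), and the Hippo list 1 rise and 2 falls among 15 (6.67% and 13.3%). Among all genes tested 8.29% rose and 6.91% fell. With 1 library left out, the Wnt and TGF-beta list held 2 to 6 falls and the Hippo list 1 to 2. The hedgehog receptor gene ptc was at 30.8, 18 and 21.1 CPM in the mutants, against 7.83, 6.69 and 6.11 CPM in the controls (log2 fold change 1.76, SE 0.26, edgeR adjusted p = 0.00057).

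Around insulin signalling, 3 of 27 genes rose, Sdr, Pdk1 and Thor, and 4 fell, sgg, Lpin, Tsc1 and step, with a median of -0.09. These were 11.1% and 14.8% of the list, against 8.29% and 6.91% of all genes tested. Beside Sdr, the kinase gene Pdk1 was at 61.5, 56.6 and 42.9 CPM in the mutants, against 14.8, 17.6 and 17 CPM in the controls (log2 fold change 1.71, SE 0.24, edgeR adjusted p = 0.000392). The glycogen synthase kinase gene sgg was at 187, 218 and 192 CPM in the mutants, against 476, 521 and 400 CPM in the controls (log2 fold change -1.23, SE 0.24, edgeR adjusted p = 0.00447). Thor, the 4E-BP translation inhibitor, was at 450, 426 and 801 CPM in the mutants, against 200, 69.1 and 80.6 CPM in the controls (log2 fold change 2.26, edgeR adjusted p = 0.0263). Its call was lost without the control replicate 2 or 3 or the mutant replicate 3 (edgeR adjusted p = 0.121, 0.117 and 0.0988), and its value was 2.9 without the control replicate 1. The falls of the list numbered 7 without the 12 h control replicate 1 and 2 without the control replicate 2 or 3 or the mutant replicate 2 or 3.

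In the cytoskeleton the class I myosin genes Myo61F and Myo31DF rose. Myo61F was at 257, 371 and 375 CPM in the mutants, against 49.6, 43.4 and 47.2 CPM in the controls (log2 fold change 2.84, SE 0.26, edgeR adjusted p = 1.68e-05), and Myo31DF rose by 1.3 (SE 0.19, edgeR adjusted p = 0.000628). These were the 2 calls among 11 myosin genes. WASp, an activator of branched actin, was at 147, 358 and 346 CPM in the mutants, against 47.4, 49.2 and 46.4 CPM in the controls (log2 fold change 2.57, SE 0.37, edgeR adjusted p = 0.000544), and the actin-membrane linker gene Moe rose by 1.34 (SE 0.24, edgeR adjusted p = 0.00248). The septate junction genes bou and vari rose by 2.41 (SE 0.3) and 1.12 (SE 0.2), with edgeR adjusted p of 0.000149 and 0.00247. With sdt they were the 3 rises among 23 genes of septate junctions and polarity, of which kune and Tsf2 fell, and the median was -0.09. The gene bou lies inside ogre on the other strand, and both rose. Rises made up 13% of the list and falls 8.7%, against 8.29% and 6.91% of all genes tested. The falls numbered 5 without the 12 h control replicate 1, 1 without the 14 h mutant replicate 3 and 0 without any other 1 of the 14 h libraries. The vesicle transport gene Rab8 fell by 1.14 (SE 0.19, edgeR adjusted p = 0.00156).

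Transporters and channels changed as follows. Mdr49, an ABC exporter gene, was at 28.4, 81 and 45.5 CPM in the mutants, against 4.36, 2.41 and 4.55 CPM in the controls (log2 fold change 3.77, SE 0.37, edgeR adjusted p = 2.33e-05), with its highest value in the library with gut-type genes. With Oatp74D and Oatp30B, it was 1 of 3 rises among 15 organic anion and ABC transporter genes, whose median was 0.61, and 1 fell. No fall was called without any 1 of the 14 h libraries, the 12 h control replicate 3 or the 12 h mutant replicates 1 or 2, and 2 were without the 12 h mutant replicate 3. The calcium channel gene Orai rose by 2.22 (SE 0.37, edgeR adjusted p = 0.00134), and Best1, a chloride channel gene, fell by 1.23 (SE 0.25, edgeR adjusted p = 0.00516). In the list of 23 channel and pump genes Orai and ogre were the 2 rises, Best1, Irk1, ClC-a and ClC-b were the 4 falls, and the median was 0.02. These were 8.7% and 17.4% of the list, against 8.29% and 6.91% of all genes tested. The rises numbered 5 and 4 without the 12 h control replicates 1 and 2.

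Genes of chromatin, translation and the cell cycle gave calls in both directions. In the chromatin list 1 of 28 rose (3.57%) and 3 fell (10.7%), against 8.29% and 6.91% of all genes tested. Translation initiation factors held 1 rise and 1 fall among 35 (2.86% each), and mitotic genes 1 and 1 among 17 (5.88% each). DNA replication and endocycle genes held 1 rise (3.7%) and 2 falls (7.41%) among 27. With 1 library left out, chromatin held 0 to 1 rises and 2 to 4 falls, and initiation factors 0 to 2 and 1 to 3. The Brahma complex genes osa and brm fell, with osa at 29.6, 28.8 and 20.6 CPM in the mutants, against 96.9, 114 and 71.8 CPM in the controls (log2 fold change -1.84, SE 0.25, edgeR adjusted p = 0.000332), and brm at -1.25 (SE 0.21, edgeR adjusted p = 0.00127). The initiation factor gene eIF3j fell by 1.48 (SE 0.16, edgeR adjusted p = 5.54e-05). The Cdk inhibitor gene dap was at 12.4, 13.2 and 13.9 CPM in the mutants, against 51, 53.6 and 44.2 CPM in the controls (log2 fold change -1.91, SE 0.3, edgeR adjusted p = 0.000865), and with Skp2 it made up the 2 falls among 27 genes of DNA replication and the endocycle. The mitotic phosphatase gene stg was at 28.4, 25.9 and 19.8 CPM in the mutants, against 3.47, 2.61 and 2.33 CPM in the controls (log2 fold change 3.13, SE 0.36, edgeR adjusted p = 9.47e-05). Cdk4 rose by 1.21 (SE 0.25, edgeR adjusted p = 0.00548), and scra, the anillin of the cleavage ring, fell by 0.82 (SE 0.17, edgeR adjusted p = 0.00476).

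Immune genes moved in both directions. PGRP-SB2 (FBgn0043577, 3L, 16726541 to 16727288), a secreted peptidoglycan recognition protein, was at 11700, 15500 and 17900 CPM in the mutants, against 1360, 1010 and 1110 CPM in the controls (log2 fold change 3.7, SE 0.34, edgeR adjusted p = 1.55e-05). Its neighbour PGRP-SB1 was at 4.18, 5.5 and 4.59 CPM in the mutants, against 0.991, 0.628 and 0.888 CPM in the controls. The receptor gene PGRP-LC, upstream in the Imd pathway, fell, with 196, 210 and 184 CPM in the mutants and 369, 345 and 320 CPM in the controls (log2 fold change -0.81, SE 0.17, edgeR adjusted p = 0.00677). PGRP-SB2 was not a member of the list of PGRPs and the NF-kappaB pathway. Of the 21 genes tested in that list PGRP-SB1 and pirk rose and PGRP-LC and PGRP-LA fell, with a median of 0.07. Each direction made up 9.52% of the list, against 8.29% of rises and 6.91% of falls among all genes tested. The rises numbered 5 without the 12 h control replicate 1 and 1 without the 14 h control replicate 1 or the mutant replicate 3, and the falls 1 without any 1 of the 14 h libraries, the 12 h control replicates 2 or 3 or the 12 h mutant replicate 1. Antimicrobial peptide genes held 3 rises among 11 members, Mtk, Drs and AttD, and no fall, while the list's median was -0.23, and 0.02 without the 14 h control replicate 3. Summed over the list, the level was 29300 to 41300 CPM in mutants and 36000 to 51100 CPM in controls. Of its members 1 fell without the 12 h control replicates 1, 2 or 3 or the 12 h mutant replicate 2. Drs was at 33.7, 26.7 and 48.5 CPM in the mutants, against 9.21, 7.22 and 5.33 CPM in the controls (log2 fold change 2.32, SE 0.51, edgeR adjusted p = 0.00817). Mtk was at 5.92, 3.74 and 4.49 CPM in the mutants, against 0.297, 0 and 0.444 CPM in the controls (log2 fold change 4.19, SE 0.61, edgeR adjusted p = 0.000512), and was 4.82 without the control replicate 3. The adjacent Bomanin genes BomBc1, BomS1, BomS2 and BomS3 on 2R, secreted immune peptides, rose with GstE1 as a run whose median was 6.11. BomS3 was at 14.3, 9.56 and 7.96 CPM in the mutants, against 0.297, 0.105 and 0 CPM in the controls (log2 fold change 6.11, SE 0.72, edgeR adjusted p = 0.000105), and 7.25 without the control replicate 1.

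Heat shock and chaperone genes held 4 rises among 15 members and no fall, with a median of 0.51. The rises were Hsp67Bc, Hsp26, stv and CG4456, the last with most of its exon length shared with another gene. Hsp67Bc, a small heat shock protein gene, was at 5140, 5230 and 6940 CPM in the mutants, against 2640, 2530 and 2660 CPM in the controls (log2 fold change 1.14, SE 0.2, edgeR adjusted p = 0.002). Hsp26 was at 91.6, 95.4 and 62.4 CPM in the mutants, against 31.4, 29.1 and 33 CPM in the controls, and stv, a co-chaperone gene, at 15.2, 17.8 and 12.7 CPM in the mutants, against 7.53, 5.02 and 5.44 CPM in the controls. In the unfolded protein response list 5 of 23 rose and 1 fell. That count was less firm: it was 0 rises when the control replicate 2 was left out, and 3 rises when either the control replicate 1 or the mutant replicate 2 was left out. The fall was lost without any 1 of the 14 h libraries except the control replicate 1. Hsc70-3, the chaperone BiP, was at 125, 131 and 94.7 CPM in the mutants and 56.3, 50.4 and 74.7 CPM in the controls (log2 fold change 0.95, SE 0.21, edgeR adjusted p = 0.00825), and its call was lost without the control replicate 2 (edgeR adjusted p = 0.0536).

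Among abundant genes with large losses, Spn28Dc, a serpin gene, was at 898, 844 and 712 CPM in the mutants, against 2570, 2320 and 2360 CPM in the controls (log2 fold change -1.56, SE 0.24, edgeR adjusted p = 0.000794). The cystatin-like protease inhibitor gene Cys fell by 1.4 (SE 0.24, edgeR adjusted p = 0.00156), although 90.7% of its exon length lies opposite another gene. The gene yuri was at 944, 610 and 837 CPM in the mutants, against 1960, 2230 and 2430 CPM in the controls (log2 fold change -1.47, SE 0.22, edgeR adjusted p = 0.000717), and ReepA fell by 1.05 (SE 0.18, edgeR adjusted p = 0.002). Mical, an enzyme that oxidises actin, was at 14200, 13300 and 8840 CPM in the mutants, against 25800, 27000 and 20400 CPM in the controls (log2 fold change -1.01, SE 0.27, edgeR adjusted p = 0.0225). Its call was lost without the control replicate 1 or 2 or the mutant replicate 2 or 3 (edgeR adjusted p = 0.0716, 0.0841, 0.0534 and 0.0888).

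The 12 h libraries show which differences were already present 2 h earlier. Of the 629 genes higher at 14 h, 273 (43.4%) were also called higher among the 602 at 12 h (7.94% of genes tested), which is 45.3% of the 12 h rises. Of the 524 lower at 14 h, 232 (44.3%) were also among the 597 lower at 12 h (7.87%), which is 38.9% of those falls. Another 10 of the 14 h rises were called lower at 12 h, and 6 of the 14 h falls were called higher there. A test of the difference itself found 133 genes with a more positive genotype effect at 14 h (1.75%) and 73 with a more negative one (0.963%). Of the 629 rises 90 had a more positive effect at 14 h and 537 did not pass that test, and of the 524 falls 52 had a more negative effect and 464 did not pass it. The number of differences, 206 in all, was 430 without the 12 h control replicate 1 and 105, 109 and 129 without the 14 h control replicates 1, 2 and 3. It was 121 and 133 without the 14 h mutant replicates 2 and 3, 70 with a replicate block within time and 84 without the libraries holding gut-type RNAs.

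**Figure D4:**
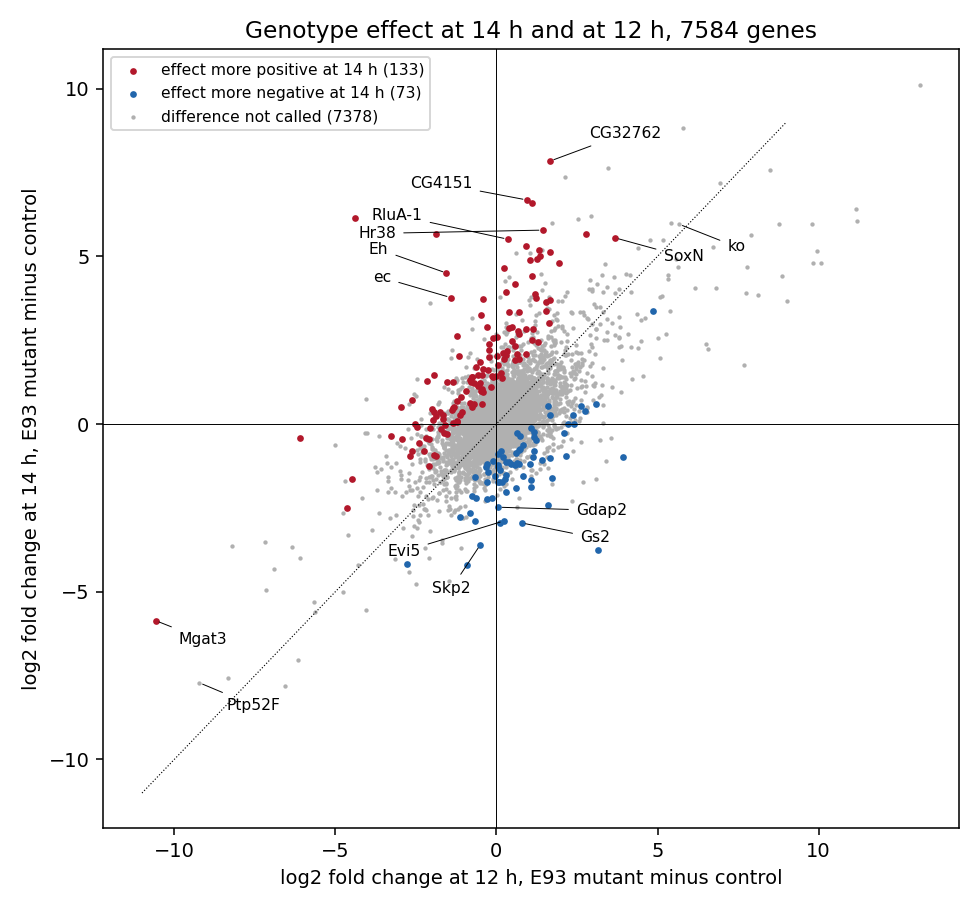
Log2 fold change of E93 mutant over control glands at 14 h (vertical) against that at 12 h (horizontal) for 7584 genes, which come from separate libraries, with the line of equal effect dotted. Genes whose effect was more positive at 14 h are red (133), more negative are blue (73) and others grey. The point of ko lies near the line, while CG32762 and Skp2 lie far from it near a 12 h effect of 1.67 and -0.5.

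Skp2, Evi5, Gs2 and Gdap2 were among the genes whose effect was more negative at 14 h. Skp2 averaged 51.4 CPM in mutants and 624 CPM in controls at 14 h, against 89.2 and 126 CPM at 12 h, and the genotype effect differed by -3.1 (edgeR adjusted p = 0.000154). Evi5 averaged 24.8 CPM in mutants and 184 CPM in controls at 14 h, against 38.7 and 33.1 CPM at 12 h, a difference of -3.11 (edgeR adjusted p = 0.000154). For Gs2 the means were 11.7 CPM in mutants and 90.3 CPM in controls at 14 h, and 100 and 58.1 CPM at 12 h, a difference of -3.74 (edgeR adjusted p = 0.000564). Gdap2 averaged 92.4 CPM in mutants, against 516 CPM in controls, at 14 h, and 123 and 118 CPM at 12 h, a difference of -2.54 (edgeR adjusted p = 0.00121). Each of these genes was called lower at 14 h and not called at 12 h.

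Effects that were more positive at 14 h included that of CG32762. Its means were 4060 CPM in mutants and 17.7 CPM in controls at 14 h and 198 and 62.3 CPM at 12 h, a difference of 6.17 (edgeR adjusted p = 0.000133). RluA-1 averaged 111 CPM in mutants and 2.41 CPM in controls at 14 h, and 0.935 and 0.718 CPM at 12 h, a difference of 5.17 (edgeR adjusted p = 3.97e-05). For Hr38 the means were 124 CPM in mutants and 2.24 CPM in controls at 14 h, and 268 and 98.8 CPM at 12 h, a difference of 4.34 (edgeR adjusted p = 0.000193). The gene ec, needed for cell death in the pupal eye, averaged 111 CPM in mutants, against 8.15 CPM in controls, at 14 h, and 21.4 and 57.1 CPM at 12 h, a difference of 5.18 (edgeR adjusted p = 0.00283). The 12 h libraries of ec stood at 18.1, 24.6 and 21.6 CPM in the mutants, against 120, 18.6 and 32.4 CPM in the controls, and without the 12 h control replicate 1 the difference was 4.03 (edgeR adjusted p = 0.000107). LManII, edl and Vha100-2 also differed, by 2.56, 2.12 and 1.99 (edgeR adjusted p = 0.000564, 0.0014 and 0.00593). Of these edl was called lower in mutants at 12 h, at -0.82 (edgeR adjusted p = 0.0132).

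Other genes had the larger effect at 12 h. Mgat3 averaged 0.679 CPM in mutants and 40.1 CPM in controls at 14 h, and 0.812 and 1280 CPM at 12 h, so the effect was more positive at 14 h by 4.72 (edgeR adjusted p = 0.00232) while the gene was low in mutants at both times. MED16 averaged 11.8 CPM in mutants and 66.6 CPM in controls at 14 h, and 5.63 and 140 CPM at 12 h, a difference of 2.13 (edgeR adjusted p = 0.000564). Eip75B, an ecdysone-induced nuclear receptor gene, was at 178, 172 and 164 CPM in the mutants and 182, 191 and 146 CPM in the controls at 14 h, with means of 1540 CPM in mutants and 330 CPM in controls at 12 h. Its difference of -2.24 (edgeR adjusted p = 0.0384) was lost without any 1 library other than the 12 h control replicates 1 and 3 (edgeR adjusted p = 0.0602 to 0.123).

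**Figure D5:**
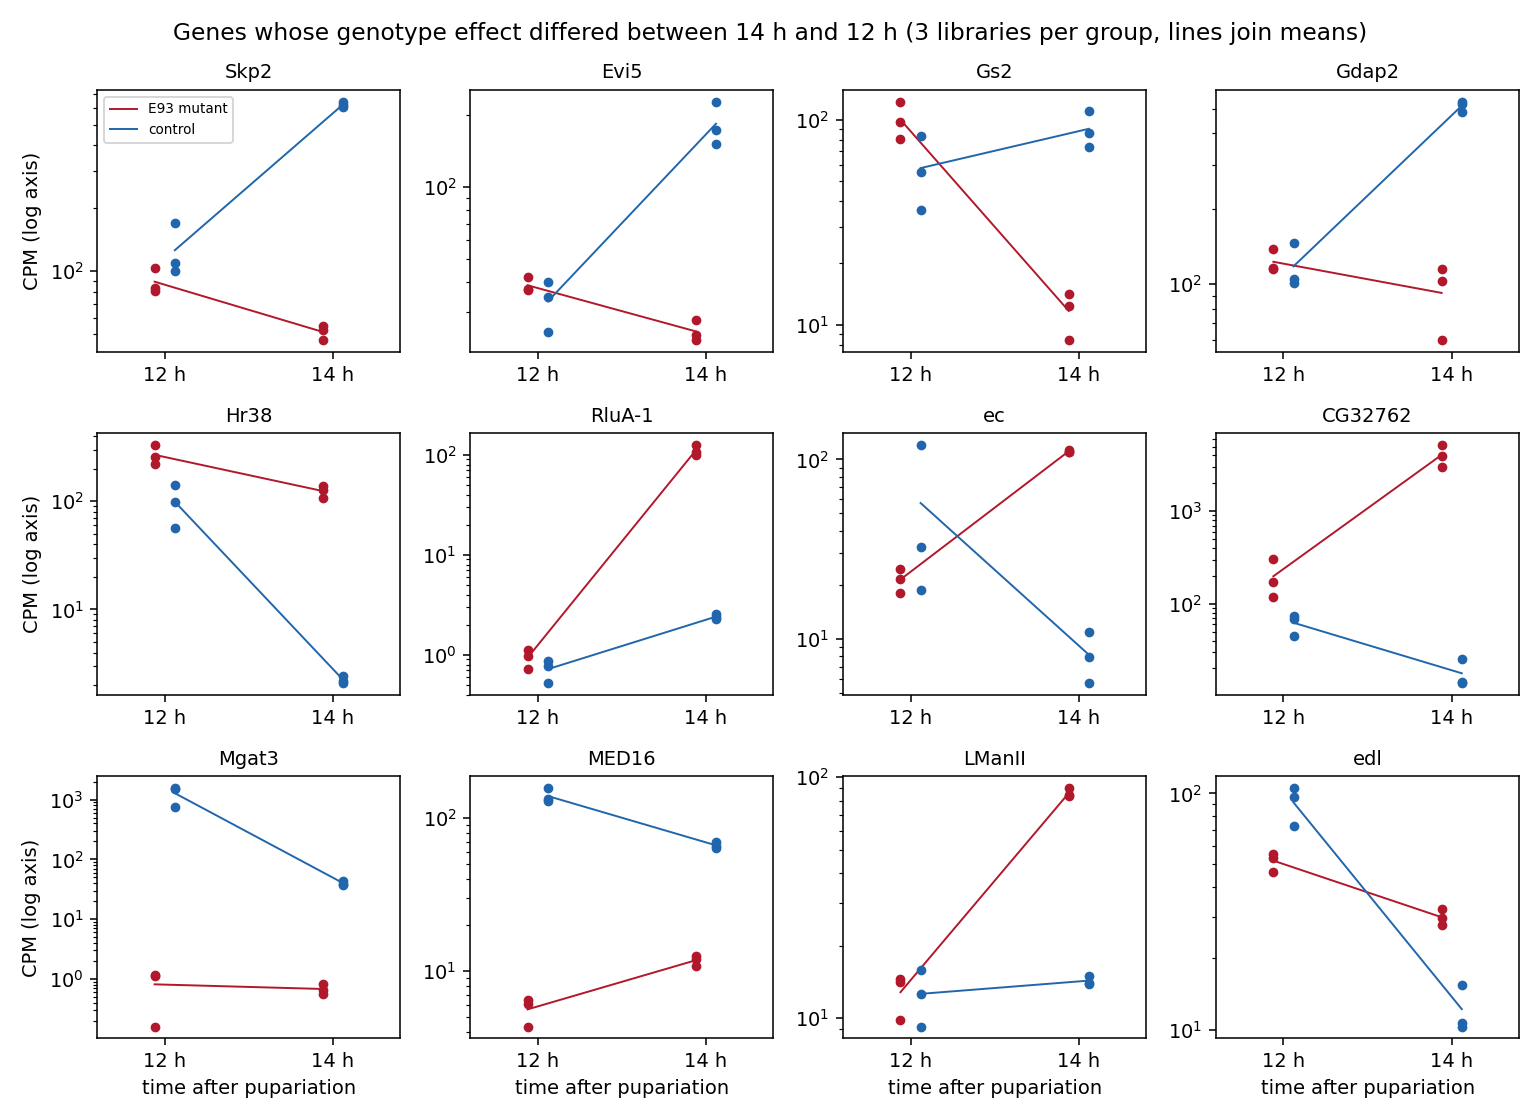
CPM (log axes that differ between panels) at 12 and 14 h for 12 genes, with 3 libraries per group as points and lines joining the means, E93 mutants in red at the left and controls in blue at the right of each time. Skp2, Evi5 and Gdap2 separate at 14 h, Hr38 and ec are low in 14 h controls, CG32762, RluA-1 and LManII are high in 14 h mutants, and Mgat3 and MED16 are low in mutants at both times.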

How the data were processed

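Per the labels, total RNA of salivary glands was isolated using a NucleoSpin RNA kit, and libraries followed standard Illumina protocols. The authors deposited a table of counts per gene (whole numbers, not normalized). Per the submitters' processing notes the build was BDGP6 and the tools were STAR 2.7.6a, cutadapt 1.16, DESeq2 1.30.1 and featureCounts 1.6.3. Their roles, the release of the annotation, whether counting used strand and how multiply mapped reads were treated are not given in the sources used here. Without strand, reads of overlapping opposite genes cannot be told apart. Of 146 genes whose values were recomputed under the alternatives (142 of them with the 5 CPM filter and 144 with the 14 h libraries alone), 7 share over 20% of exon length with a gene on the opposite strand and 0 on the same strand.

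Of 17807 genes 17710 matched the reference annotation of BDGP6, which supplied symbols and positions and whose release may differ from the authors', and 97 did not. Counts of all 12 libraries were filtered with filterByExpr over the 4 groups, scaled by TMM and fitted with edgeR 4.0.16 in R 4.3.3 (quasi-likelihood test, 4 group means, 8 residual degrees of freedom). Adjusted p-values are Benjamini-Hochberg values across all 7584 genes. The 12 h libraries entered the fit to share the estimate of spread. The fit was also run on counts simulated from its own gene means and estimates of spread. Such a run checks the procedure and cannot show how outlying libraries affect the calls.

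The comparison, its gene lists and the naming rule were chosen with earlier results of these data known. The rule took Eip93F, the 20 largest rises and 20 largest falls with an adjusted p under 0.05, at least 10 CPM in the higher group, no overlap and a non-provisional symbol, the largest changes in mean CPM, the 3 or fewer called members of a list whose p was smallest, the largest differences between times and called markers. Provisional and non-coding genes, Bomanin genes, further members of the named families and the gut-type genes were picked once their values had been seen. The alternatives were the 14 h libraries fitted alone, each library left out in turn, a replicate block within time, DESeq2 1.42.0, limma voom 3.58.1, scaling by RLE, by plain library size or by TMM computed with the 20 most abundant genes removed, the filter dropped or set to 5 CPM in 3 libraries, and thresholds of 0.01 or 2-fold. A further 3, chosen after seeing the data, were the 14 h fit with a block and fits without the libraries holding gut-type RNAs, with or without the 12 h control replicate 1. The text names part of the genes that the rule took, and the others are not reported here. Promoter sequences were not used here.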

Additional observations from a re-analysis of the deposited data

Results flagged for a closer look

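The genotype effect differed between 14 h and 12 h, by a test of the difference itself in edgeR, for 45 of the genes named or recomputed, 32 with a more positive effect at 14 h and 13 with a more negative one. The values are log2 effects at 14 h minus those at 12 h, with edgeR adjusted p over all genes tested.

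Among transcription and signalling genes the difference was 4.34 for Hr38 (adjusted p = 0.000193), 1.87 for SoxN (0.00182), 2.63 for D (0.0106), 1.99 for Sox21b (0.0226), 2.12 for edl (0.0014), 2.18 for aop (0.0106) and 1.37 for Ptp4E (0.0175). It was 6.05 for the hormone gene Eh (0.00121). It was -3.34 for sty (0.0107), an inhibitor of receptor tyrosine kinase signalling, -1.16 for Eip78C (0.0177) and -2.24 for Eip75B (0.0384). It was 2.13 for MED16 (0.000564), -2.23 for Pdcd4 (0.000273), -3.1 for Skp2 (0.000154) and -3.11 for Evi5 (0.000154).

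Genes of secreted and gland proteins with a more positive effect were Eig71Ec at 3.47 (0.0177), Eig71Ed at 3.67 (0.0192), Eig71Ee at 1.75 (0.0193), Eig71Ef at 3.87 (0.0262), Eig71Eg at 3.66 (0.0336) and PGRP-SB2 at 2.04 (0.0254). The provisional genes CG4151 and CG32762 differed by 5.74 (0.000741) and 6.17 (0.000133). More negative effects were -1.39 for CG10140 (0.0107) and -1.52 for Spn28Dc (0.0303).

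Enzymes and organelle genes with a more positive effect were Mgat3 at 4.72 (0.00232), RluA-1 at 5.17 (3.97e-05), LManII at 2.56 (0.000564), Vha100-2 at 1.99 (0.00593), mmy at 1.16 (0.0214) and mRpS17 at 3.18 (0.0119). More negative effects were -3.74 for Gs2 (0.000564), -2.54 for Gdap2 (0.00121), -0.89 for Hsl (0.0476) and -1.62 for Lpin (0.0211).

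For the cytoskeleton, transport and clearance the difference was 1.9 for Myo61F (0.0119), 2.68 for WASp (0.0138), 2.54 for Mdr49 (0.0165), 2.67 for blot (0.00243), 1.45 for mbc (0.0154) and -1.92 for drpr (0.0175). It was 4.38 for Sobp (0.00243), 3.31 for rgr (0.0043), 5.18 for ec (0.00283) and 1.43 for Hsp26 (0.0467).

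Of the 45 differences 25 were kept without each library in turn. The 20 that were lost without at least 1 library were those of Eig71Ec, Eig71Ed, Eig71Ee, Eig71Ef, Eig71Eg, Eip75B, Eip78C, Hsl, Hsp26, Lpin, Mdr49, Myo61F, PGRP-SB2, Ptp4E, Sox21b, Spn28Dc, WASp, drpr, mbc and mmy. By library, 26 were kept without the 14 h control replicate 2, 28 without the control replicate 1 and 44 without the 12 h control replicate 1, the lowest and highest counts of the 12. The differences that moved by over 1.5 times when 1 library was left out and stayed past the threshold were 4.03 for ec (0.000107) and 1.93 for D (0.00232) without the 12 h control replicate 1, 5.31 for Eh (0.00539) without the 12 h control replicate 2 and 4.5 for Eig71Ef (0.0243) without the 12 h mutant replicate 2. A replicate block within time kept 20, and the fit without the 2 libraries holding gut-type RNAs kept 22.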

How the results depend on the processing

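The total of 1153 genes was 1412 with DESeq2, 1270 with limma voom, 1151 with RLE size factors and 1116 with library size alone, and none of 141 called genes recomputed changed direction under any alternative run. A fit of the 14 h libraries alone called 2128 (1067 higher, 1061 lower), and 2314 (1161 and 1153) with a replicate block; the cause was not tested. An adjusted p under 0.01 left 636 (368 and 268), and a 2-fold minimum left 324 falls. Leaving out 1 library gave 701 to 1586 calls, 383 to 778 rises and 318 to 808 falls, the highest of each without the 12 h control replicate 1. Without both libraries with gut-type genes 321 fell. Same-number libraries were not stated to be paired, and their deviations correlated at 0.0331, 0.0482 and 0.218 at 14 h. A replicate block within time called 953 genes and 70 differences between times, in place of 206. Those differences numbered 334 with DESeq2, 84 without the gut-type libraries, and 105 to 430 when 1 library was left out. Values that changed sign without being called were those of Eip75B and Tsp2A. Eip75B, at -0.01 with all libraries, was 0.01 with a 5 CPM filter and -0.13 to 0.06 when 1 library of the 14 h groups was left out. It was 0.02, 0.06 and 0.01 without the control replicates 1 and 2 and the mutant replicate 3. Tsp2A was 2.91 with all libraries and rested on the mutant replicate 2, at 0.204, 12.1 and 0.749 CPM in the mutants. It was -0.2 to 3.47 when 1 library was left out. Its value was -0.2 without the mutant replicate 2 or without both gut-type libraries, and -0.22 without these and the 12 h control replicate 1. Of these 141 genes 120 kept the call without each library in turn. A count of 0 allows a level of up to 0.281 to 0.333 CPM at this depth. Printed levels below that limit, such as those of lncRNA:CR44414 in the controls, rest on few counts and are imprecise.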
